A study of Mus musculus with 4 samples.

Results

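The NR4A orphan nuclear receptors Nr4a1 (ENSMUSG00000023034), Nr4a2 (ENSMUSG00000026826) and Nr4a3 (ENSMUSG00000028341) were compared in cardiomyocytes of pressure-overloaded and control mouse hearts. They are 3 of the 22322 genes listed in each library, found by gene symbol, and they were picked from earlier results of these data because Nr4a3 was higher in TAC while other early-response genes were lower. Their own differences between TAC and sham, and those of the immediate early genes, are therefore given below as a description with no test. RNA was sequenced from 2 libraries of sham-operated mice and 2 of mice with transverse aortic constriction (TAC), in which a narrowed aorta puts a chronic pressure load on the left ventricle. All mice were males that were 2 months old at the operation, and the cells came from 14-week hearts. The sources used here give 14 weeks as the age of the mice. They also give it as the time from operation to echocardiography and to the ventricle and lung weights. The length of the pressure load is therefore uncertain. By the labels the groups differed in the operation alone, with no transgene or drug named for these samples, and the sources used here do not give the strain. Cells were released by enzymes during Langendorff perfusion, and per the methods of the study the cells of each heart were shared out between assays, so that 1 library stands for 1 mouse.

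NR4A receptors are transcription factors with a DNA-binding domain of the nuclear receptor type and a ligand pocket that is filled by bulky side chains, so they are regarded as controlled mainly by how much of them is made. Their genes are immediate early genes: cAMP, calcium and growth signals switch them on within minutes, through CREB bound at cAMP response elements (CRE) in their promoters and, in several cell types, through MEF2 and calcineurin. The proteins bind the NBRE sequence as monomers, and Nr4a1 and Nr4a2 can also pair with retinoid X receptors (RXR). In muscle and heart they rise after beta-adrenergic stimulation and exercise and have been linked to glucose and fat handling.

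The promoters show what the 3 paralogs share. In the RefSeq window of each gene (build GRCm38.p6, 250 bases before to 50 after the annotated start), the CRE core CGTCA, read on both strands as CGTCA or TGACG, occurred 4 times in Nr4a1, 4 times in Nr4a2 and 4 times in Nr4a3. The sequences below run 5′ to 3′ on the strand of the gene, with each core in capitals. The Nr4a1 stretch is chr15:101266596-101266845 on the plus strand and the Nr4a2 stretch is chr2:57124004-57124253 on the minus strand, both ending at the base before the start.
Nr4a1: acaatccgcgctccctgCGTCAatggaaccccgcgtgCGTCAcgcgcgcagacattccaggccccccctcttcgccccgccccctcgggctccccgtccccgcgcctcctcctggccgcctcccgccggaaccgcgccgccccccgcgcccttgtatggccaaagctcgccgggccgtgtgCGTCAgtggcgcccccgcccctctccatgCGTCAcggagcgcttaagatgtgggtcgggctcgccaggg
Nr4a2: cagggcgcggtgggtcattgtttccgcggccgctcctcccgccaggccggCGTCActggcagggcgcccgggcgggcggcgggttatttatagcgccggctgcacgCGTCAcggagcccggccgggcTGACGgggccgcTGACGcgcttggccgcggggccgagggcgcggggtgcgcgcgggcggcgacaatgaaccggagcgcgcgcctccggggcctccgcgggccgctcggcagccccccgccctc
Nr4a3, distal: gtcccatgtCGTCAcatTGACGtctcgcat
Nr4a3, proximal: ctgtggcataaaTGACGtgccgagagagcg
The Nr4a3 stretches are chr4:48045083-48045112 and chr4:48045146-48045175 on the plus strand, and they hold 3 of its 4 cores. They are kept to 30 bases because an annotated Nr4a3 transcript begins at base 48045153, inside this window.

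As many as 4 cores are uncommon in windows of this kind: of 32851 RefSeq windows, 20.8% held at least 1 core, 5.01% at least 2, 1.03% at least 3 and 0.231% (76 windows) at least 4. These shares are over all windows and were not matched for G and C content. A full palindromic CRE, TGACGTCA, counts as 2 overlapping cores in this search. None of the NR4A windows held the full CRE, which was present in 1.79% of windows. The cores lay 233, 213, 69 and 40 bases before the start in Nr4a1, at 200, 144, 123 and 111 bases in Nr4a2 and at 231, 213, 205 and 147 bases in Nr4a3. The Nr4a3 start used here is the RefSeq one, and since an annotated GENCODE transcript begins upstream of it, the core at 147 bases lies inside that transcript and the positions of Nr4a3 depend on the start chosen. The Nr4a1 window lies inside the annotated GENCODE span of its gene, which begins at base 101254269 on the plus strand. Its positions and core counts therefore depend on the start chosen as well. The letters around the core differed between the paralogs. All 4 cores of Nr4a1 read TGCGTCA, and its window was the only 1 of the 32851 with at least 3 copies of that word. In Nr4a3, 3 of the 4 cores read TGACGT, a count reached by 0.201% of windows, and in Nr4a2 no core read either word. These longer words were chosen after the sequences were seen, and a match is a description of the letters, not evidence of binding.

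Other motifs were rare in the NR4A windows. The letters of the NBRE, AAAGGTCA, the site that NR4A monomers bind, were in 1.51% of all windows and in none of the 3. The TATA box letters TATAAA were in 13.6% of windows and once in Nr4a2. The CArG box was searched as CC, 6 bases of A or T, and GG, and the MEF2 box as CTA, 4 bases of A or T, and TAG. These strict words were in none of the 3 windows (1.63% and 0.557% of all windows). Looser forms were not searched, so near matches in the sequences above were not counted. G and C made up 81.7% of the Nr4a2 window, more than in 99.5% of windows, against 72.3% in Nr4a1 and 64.7% in Nr4a3. Among the other immediate early genes with a window, 12 of 20 held at least 1 core, 6 held at least 2 and 0 held 4 or more.

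The genes lie apart in the genome (GENCODE M21, build GRCm38). Nr4a1 spans chr15:101254269-101274795 on the plus strand, Nr4a2 chr2:57106830-57124003 on the minus strand and Nr4a3 chr4:48045153-48086447 on the plus strand. In the transcript with the longest annotated 3′UTR, each gene had 8 exons, and the 3′UTR measured 543 bases in Nr4a1, 1326 in Nr4a2 and 3095 in Nr4a3.

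Levels are given as CPM (counts relative to a TMM-scaled library size) for comparing libraries, and as the deposited FPKM (fragments per kilobase of transcript, relative to library size) for comparing genes. Values are listed in the order of the replicate numbers, which are names and not a sequence. The libraries held 24237777 to 32118323 counts. Ranges in parentheses are 95% Poisson intervals, which cover counting error only. All 3 receptors passed the filter on low counts, as did 12499 of the genes listed.

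Nr4a3 (also called NOR-1) was higher in TAC. The sham libraries measured 2.50 CPM (1.98 to 3.11) and 2.15 CPM (1.65 to 2.76), from 79 and 62 counts. The TAC libraries measured 12.8 CPM (11.5 to 14.2) and 11.2 CPM (9.88 to 12.6), from 358 and 273 counts. Both TAC libraries stood above both sham libraries, and the libraries of a group lay close together. The mean was 2.33 ± 0.242 CPM in sham and 12.0 ± 1.18 CPM in TAC (SD, n = 2 each). The difference was 5.15-fold, with a log2 fold change of 2.36 ± 0.17 (SE of the edgeR fit). By log2 fold change Nr4a3 ranked 23 from the top of the 12499 tested genes. Groups that do not overlap were common among these libraries, at 60.1% of tested genes.

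Nr4a2 (also called NURR1) was lower in TAC and close to the limit of detection. Sham 1 measured 2.43 CPM (1.92 to 3.04) and sham 2 measured 0.904 CPM (0.590 to 1.32), from 77 and 26 counts. TAC 1 measured 0.502 CPM (0.275 to 0.842) and TAC 2 measured 0.286 CPM (0.115 to 0.590), from 14 and 7 counts. Sham 1 stood alone at the top. Sham 2 lay above both TAC libraries, but its interval overlapped that of TAC 1. The mean was 1.67 ± 1.08 CPM in sham and 0.394 ± 0.153 CPM in TAC (SD, n = 2 each). The log2 fold change was -2.06 ± 0.59, or 4.17-fold lower. Without sham 1 the log2 fold change was -1.17. With 124 counts over the 4 libraries, Nr4a2 had a higher mean CPM than 10.9% of tested genes.

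Nr4a1 (also called NUR77) had the highest mean CPM of the receptors in each group and did not separate the groups. Levels were 32.1 CPM (30.2 to 34.2) for sham 1 and 14.1 CPM (12.7 to 15.5) for sham 2, from 1017 and 405 counts. They were 18.8 CPM (17.3 to 20.5) for TAC 1 and 9.20 CPM (8.04 to 10.5) for TAC 2, from 525 and 225 counts. TAC 1 lay above sham 2, so the groups overlapped. In TAC 2 its CPM was below that of Nr4a3, though CPM takes no account of transcript length. The mean was 23.1 ± 12.8 CPM in sham and 14 ± 6.81 CPM in TAC (SD, n = 2 each), and the log2 fold change of -0.72 ± 0.41 was smaller than the spread within the groups. Without sham 1 it was 0.00, and without TAC 1 it was -1.33.

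**Figure D1:**
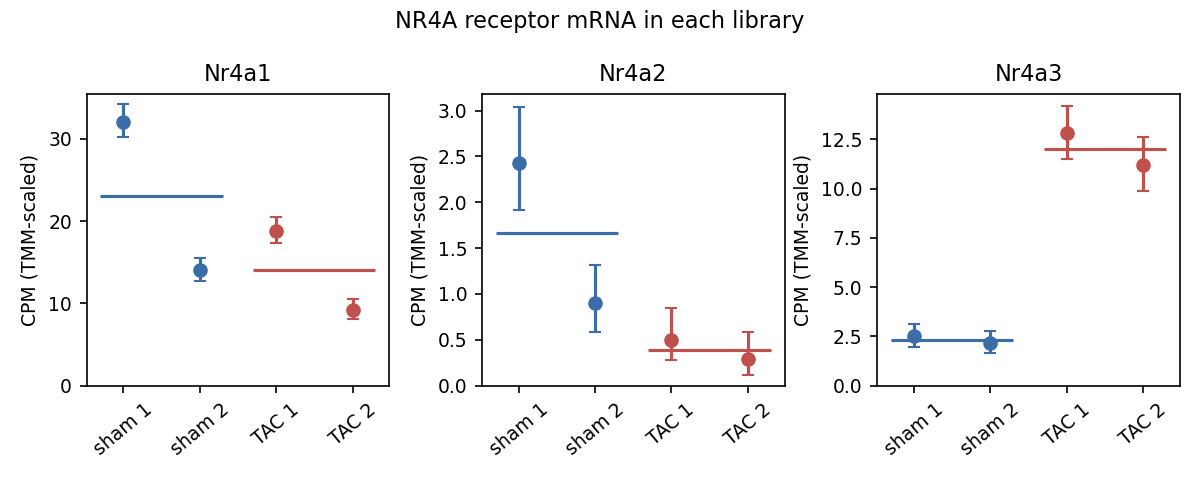
TMM-scaled CPM of Nr4a1, Nr4a2 and Nr4a3 (vertical axes from 0, a separate scale for each gene) in each sham (blue) and TAC (red) library, with 95% Poisson intervals as bars and group means as horizontal lines. The TAC libraries sit at 12.8 and 11.2 CPM for Nr4a3, above both sham libraries, while the groups overlap for Nr4a1.

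The receptors also differed in how well the libraries of a group matched. Nr4a1 differed 2.28-fold between the sham libraries and 2.05-fold between the TAC libraries, gaps larger than those of 97.9% and 95.3% of tested genes. Nr4a2 differed 2.69-fold between the sham libraries, a larger gap than 98.6% of genes, and 1.75-fold between the TAC libraries (92.9%), though low counts alone give wide gaps. Nr4a3 differed 1.16-fold and 1.15-fold, near the middle of all genes (64.6% and 57.8%). For Nr4a1 and Nr4a2 the first library of each group held the higher level, although the numbers pair nothing in the labels.

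Per transcript length, Nr4a1 was the main NR4A message in every library. Its deposited FPKM was 14.22 and 5.91 in the sham libraries and 6.58 and 3.75 in the TAC libraries. Nr4a3 stood at 0.48 and 0.42 FPKM in sham and at 2.05 and 2.08 FPKM in TAC. Nr4a2 stood at 0.91 and 0.26 FPKM in sham and at 0.13 and 0.12 FPKM in TAC. Nr4a1 thus took 91.1% and 89.7% of the summed NR4A FPKM in the sham libraries, and 75.1% and 63.0% in the TAC libraries. The Nr4a3 share was 3.07% and 6.37% in sham, and 23.4% and 35.0% in TAC. The Nr4a2 share was 5.83% and 3.95% in sham, and 1.48% and 2.02% in TAC.

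The order of the paralogs by FPKM did not separate the groups. In sham 1, Nr4a3 was at 0.527 times the FPKM of Nr4a2 and in sham 2 at 1.62 times. In TAC 1 and TAC 2 it was at 15.8 and 17.3 times, so sham 2 shared the order Nr4a1, Nr4a3, Nr4a2 with both TAC libraries. Nr4a1 exceeded Nr4a3 by 29.6 and 14.1 times in the sham libraries, and by 3.21 and 1.80 times in the TAC libraries. The summed FPKM of the family was 15.6, 6.59, 8.76 and 5.95 from sham 1 to TAC 2, and its groups overlapped.

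**Figure D2:**
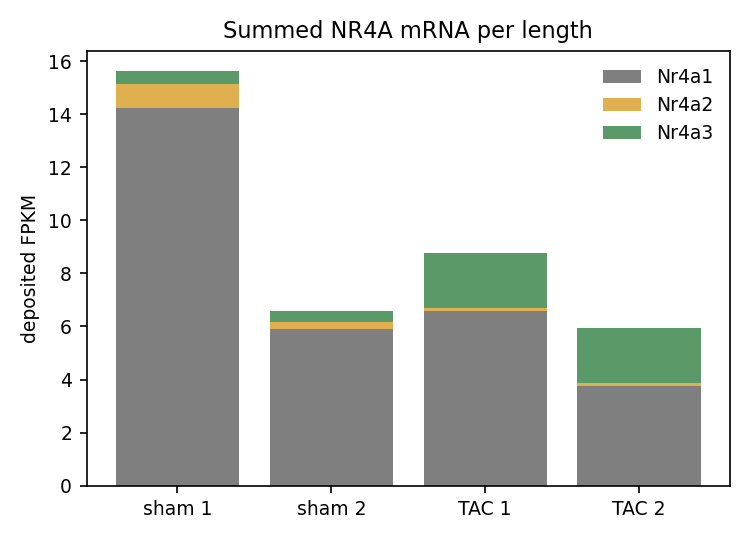
Deposited FPKM of the NR4A receptors stacked for each library (vertical axis from 0). The Nr4a3 part is 0.48 and 0.42 FPKM in the sham libraries and 2.05 and 2.08 FPKM in the TAC libraries, and Nr4a1 is the largest part of every bar.

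FPKM depends on the transcript length assigned to a gene in each library. The length implied by count, FPKM and library total was 2475 to 2484 bases for Nr4a1 and 5333 to 5706 bases for Nr4a3, but 2407 to 3613 bases for Nr4a2, whose FPKM has few digits. By mean FPKM the log2 ratio of TAC to sham was -0.96 for Nr4a1, -2.23 for Nr4a2 and 2.20 for Nr4a3. Scaling by total counts, as the study states, moved the median of all tested genes from -0.01 to -0.20 and gave -0.95, -2.28 and 2.17. Over the alternatives in the plot of settings, Nr4a3 kept a log2 fold change between 2.17 and 2.48, Nr4a2 between -2.60 and -1.17 and Nr4a1 between -1.33 and 0.00.

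**Figure D3:**
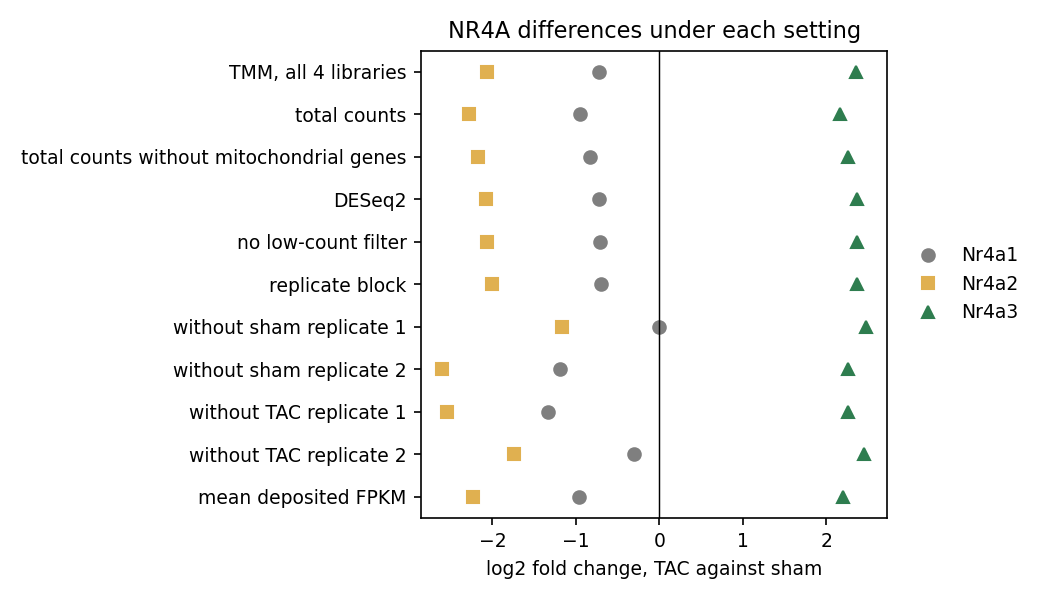
Log2 fold change of TAC against sham for Nr4a1 (circles), Nr4a2 (squares) and Nr4a3 (triangles) under each way of processing the counts, and from the mean deposited FPKM. Nr4a3 lies between 2.17 and 2.48 under these settings, while Nr4a1 reaches 0.00 without sham replicate 1.

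The other immediate early genes were set beside the receptors with no test, since their direction was part of the choice. Of 28 listed genes, 26 were tested, and Fosl1 and Egr4 had no count. The log2 fold change was above 0 for 3 of the 26 and below 0 for 23, with a median of -0.72 against -0.01 for all tested genes. Groups did not overlap for 18 of the 26, against 60.1% of all tested genes. The lowest values belonged to Fos, Egr1 and Fosb, which encode partners of AP-1 and a zinc finger factor of growth signalling. Fos measured 127 and 64.3 CPM in sham and 14.1 and 16.2 CPM in TAC, a log2 fold change of -2.66 ± 0.30. Egr1 measured 172 and 86.0 CPM in sham and 19.2 and 23.6 CPM in TAC (-2.60 ± 0.30), and Fosb had a log2 fold change of -2.51 ± 0.55. These genes were low in both TAC libraries, and their sham libraries differed from each other in the direction of Nr4a1 and Nr4a2.

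The highest log2 fold changes of the list were 1.02 ± 0.14 for Ccn2, a secreted matrix protein gene also driven by YAP and SRF, 0.20 ± 0.28 for Myc and 0.03 ± 0.29 for Maff. All were below that of Nr4a3. Ccn2 measured 44.1 and 52.2 CPM in sham and 110 and 84.5 CPM in TAC. Atf3, a stress-induced CREB-family repressor, measured 26.0 and 11.5 CPM in sham and 25.5 and 9.41 CPM in TAC, so the first library of each group was high, as for Nr4a1. The list as a whole differed between the sham libraries, by a median log2 of 0.63 for sham 1 over sham 2, against 0.06 for TAC 1 over TAC 2. Without sham 1 its median was -0.32, and without sham 2 it was -1.01.

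**Figure D4:**
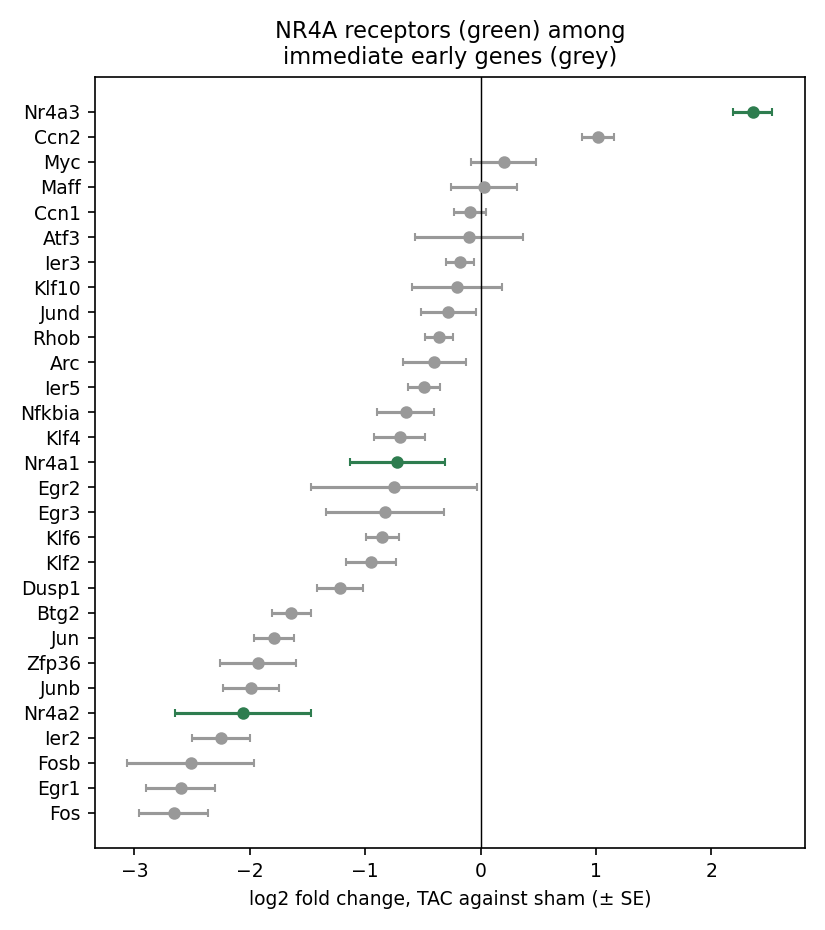
Log2 fold change of TAC against sham with its SE for the NR4A receptors (green) and the tested immediate early genes (grey), ordered by value. Nr4a3 stands at the top at 2.36, with Ccn2 next at 1.02, while Nr4a2 lies at -2.06, above Fos, Egr1, Fosb and Ier2.

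Genes known to act upstream of NR4A transcription were then examined, in a list of 30 that covered cAMP signalling, MEF2 with its histone deacetylases, and calcineurin with NFAT. With edgeR, 5.01% of all tested genes passed an adjusted p of 0.05, 2.58% higher and 2.43% lower in TAC. In the upstream list 2 genes were called higher, 0 were called lower and 28 were not called, a share of 6.67%. At an unadjusted p under 0.05 there were 12 of the 30, against 3438 of the 12499 genes tested. The median log2 fold change of the list was 0.02. Of the 30 genes, 21 had groups that did not overlap, against the 60.1% of all genes given above.

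Rcan1, an inhibitor of calcineurin whose own transcription is driven by calcineurin and NFAT, rose from 92.9 and 61.1 CPM in sham to 398 and 308 CPM in TAC. Its log2 fold change was 2.20 ± 0.20 (edgeR adjusted p = 0.00445), and it was called in all 10 fits tried. Srf, a factor that drives both early genes and the cardiac cytoskeleton, rose from 52.8 and 54.3 CPM to 76.5 and 70.0 CPM (log2 0.45 ± 0.08, edgeR adjusted p = 0.0278). That call was lost with total counts (edgeR adjusted p = 0.213), without sham 1 (0.0522) and without TAC 1 (0.0992). Crem, a CREB relative with an inducible repressor form, measured 2.43 CPM in both sham libraries and 5.70 and 3.68 CPM in TAC. It missed the threshold at log2 0.95 ± 0.26 (edgeR adjusted p = 0.0762), passed it in 2 of the 10 fits, with no filter (0.0159) and without TAC 2 (0.0286), and stood at log2 0.60 without TAC 1. For Creb1 itself the log2 value was 0.03 ± 0.11 (edgeR adjusted p = 0.895), for Mef2a -0.14 ± 0.08 (0.271) and for Mef2d -0.05 ± 0.07 (0.700). Mef2c, which is outside the naming rule and was added after its values were seen, stood at -0.35 ± 0.09 (edgeR adjusted p = 0.0686) and was called lower in 3 of the 10 fits, those with total counts (0.0379), without the mitochondrial genes (0.0308) and with no filter (0.0276). Hdac7 and Prkar1a were added in the same way. Hdac7 stood at -0.65 ± 0.15 (edgeR adjusted p = 0.0529) and was called lower with total counts, DESeq2 and no filter, among others. Prkar1a stood at 0.37 ± 0.08 (edgeR adjusted p = 0.0501) and was called higher with DESeq2 and no filter, among others.

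Of 46 other nuclear receptors, 32 were tested. The remaining 14 were under the filter, 8 of them with no count in any library. In the tested part 3 were called, 2 of them lower, which is 9.38% against 5.01% of all genes, and the median log2 fold change was -0.10. Nr1d2, the clock repressor REV-ERB beta, fell from 83.4 and 98.7 CPM to 48.6 and 55.6 CPM (log2 -0.80 ± 0.11, edgeR adjusted p = 0.0121). Nr3c2, the mineralocorticoid receptor, fell from 20.5 and 22.0 CPM to 13.6 and 10.6 CPM (log2 -0.81 ± 0.14, edgeR adjusted p = 0.0248). Nr1d2 and Nr3c2 were called in all 10 fits tried.

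The RXR partners of Nr4a1 and Nr4a2 did not pass the test. The log2 fold change stood at -0.23 ± 0.09 for Rxra (edgeR adjusted p = 0.134), 0.24 ± 0.12 for Rxrb (0.238) and 0.18 ± 0.08 for Rxrg (0.198). Rxrg changed sign with total counts, to -0.01, in step with the shift of all genes.

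Muscle genes of glucose and fat handling that have been linked to NR4A receptors were a list of 20, of which 19 were tested and Adipoq, an adipocyte gene, had no count. In it 1 gene was called higher and 2 were called lower, which is 15.8% of those tested against 5.01% of all genes, and the median log2 fold change was 0.04. Pgam2, the muscle phosphoglycerate mutase of glycolysis, rose from 289 and 305 CPM to 387 and 385 CPM (log2 0.38 ± 0.07, edgeR adjusted p = 0.0338), a call that ended with total counts, with the mitochondrial genes kept (0.361) or left out (0.0504). Phkg1, the catalytic subunit of muscle phosphorylase kinase that starts glycogen breakdown, fell from 13.7 and 17.1 CPM to 6.92 and 6.99 CPM (log2 -1.14 ± 0.15, edgeR adjusted p = 0.0111). Ppargc1b, a coactivator of mitochondrial genes, fell from 10.2 and 9.63 CPM to 6.53 and 5.93 CPM (log2 -0.67 ± 0.14, edgeR adjusted p = 0.0441). Phkg1 was called in all 10 fits and Ppargc1b in 5, none of them with a library left out. Pgam2 was also not called without sham 1 or without TAC 1.

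The related coactivator Ppargc1a lay on the other side, at 75.6 and 84.0 CPM in sham and 113 and 97.9 CPM in TAC, and missed the threshold (log2 0.40 ± 0.10, edgeR adjusted p = 0.0553). Ppargc1a was called higher in 4 of the 10 fits, those with DESeq2 (adjusted p = 0.0121), with no filter (edgeR, 0.00977), without sham 2 (0.0294) and without TAC 2 (0.0267). Pdk4, the kinase that holds back glucose oxidation, measured 366 and 377 CPM in sham and 452 and 629 CPM in TAC (log2 0.54 ± 0.14, edgeR adjusted p = 0.0703). Pdk4 was called higher in 5 of the 10 fits, among them DESeq2 (adjusted p = 0.00117), edgeR with no filter (0.00379), without sham 2 (0.0497) and without TAC 1 (0.0140), and its log2 value was 0.28 without TAC 2 and 0.76 without TAC 1. Groups did not overlap for either gene, nor for 15 of the 19 tested in the list, against 60.1% of all genes.

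Further CREB-responsive genes outside the immediate early list numbered 16, and 13 were tested. Crem is in this list and in the upstream list. There was 1 call in each direction, which is 15.4% of those tested against 5.01% of all genes, and the median log2 fold change was -0.12. Nfil3, a basic leucine zipper repressor of the clock and of immune cells, rose from 6.04 and 4.52 CPM to 23.2 and 11.8 CPM (log2 1.73 ± 0.31, edgeR adjusted p = 0.0282), but not past the threshold without TAC 1 (0.0544). Pde4d, a phosphodiesterase that breaks down cAMP, fell from 12.7 and 14.5 CPM to 6.64 and 9.08 CPM (log2 -0.79 ± 0.17, edgeR adjusted p = 0.0470). The Pde4d call was lost without sham 2 (edgeR adjusted p = 0.0672) and without TAC 1 (0.154). Without TAC 1 no gene of this list was called, and without TAC 2 there were 6.

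**Figure D5:**
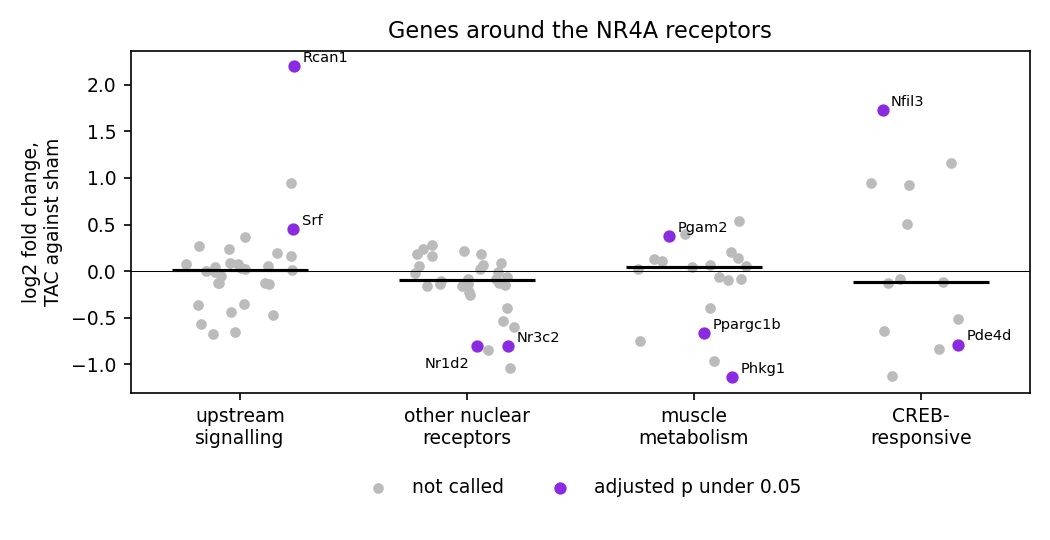
Log2 fold change of TAC against sham for tested genes of the upstream, nuclear receptor, muscle metabolic and CREB-responsive lists, with 1 nuclear receptor left out. Purple points passed an edgeR adjusted p of 0.05, grey points did not, and black lines are medians of the tested genes of each list, which lie between -0.12 and 0.04.

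The genes whose pattern over the 4 libraries was most like each receptor were found by the Euclidean distance between centred log2(CPM + 0.5), among the 11179 tested genes averaging 1 CPM or more. With 4 points each, and with genes chosen for likeness, these are descriptions. For Nr4a3 the nearest were Tnfrsf12a (distance 0.28), Aqp8 (0.29), Rcan1 (0.33), Edn3 (0.37) and Nppb (0.50). Tnfrsf12a, the receptor for the cytokine TWEAK, measured 48.4 and 37.0 CPM in sham and 172 and 150 CPM in TAC. Nppb, the precursor of B-type natriuretic peptide and a marker of wall stress, measured 163 and 171 CPM in sham and 760 and 471 CPM in TAC.

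For Nr4a1 the nearest were Rab43 (0.48), Ppp1r15a (0.51), Gm12184 (0.53), Cmklr1 (0.57) and Atf3 (0.59). Ppp1r15a, the stress-induced phosphatase subunit GADD34, measured 46.9 and 28.1 CPM in sham and 31.0 and 21.8 CPM in TAC. For Nr4a2 they were Mid1 (0.27), Marcksl1 (0.37), C5ar1 (0.42), Plk2 (0.43) and C7 (0.44). Plk2, a kinase of early growth responses, measured 29.0 and 19.1 CPM in sham and 12.2 and 11.2 CPM in TAC. C5ar1, a complement receptor of myeloid cells, measured 2.37 and 1.25 CPM in sham and 0.789 and 0.654 CPM in TAC. No gene appeared in more than 1 of these groups of 5. The pseudocount of 0.5 flattens a gene as low as Nr4a2. With no pseudocount, an alternative chosen after the data were seen, 1 of its 5 nearest genes was shared with those above (Marcksl1, distance 0.54), and the others were the immediate early genes Fosb (0.73), Ier2 (0.76), Jun (0.78) and Btg2 (0.82). For Nr4a1 and for Nr4a3, 3 of the 5 were shared, among them Rab43 and Rcan1 as the nearest.

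NR4A genes are also expressed in endothelial cells and macrophages, so markers of such cells are given for the same libraries. In bulk RNA, fewer cells of a type and less RNA per cell cannot be told apart. The 15 cardiomyocyte markers summed to 89020 and 98500 CPM in sham and 99080 and 93990 CPM in TAC, so markers of the labelled cell type were abundant in every library. The 15 endothelial markers, with Pecam1 and Cdh5, summed to 956.8 and 802.2 CPM in sham and 452.5 and 631.2 CPM in TAC, and all 15 had a log2 fold change below 0 (median -0.63). The 15 macrophage markers, with Csf1r and Adgre1, summed to 151.9 and 77.55 CPM in sham and 40.65 and 77.84 CPM in TAC, and all 15 were below 0 (median -0.90). The 15 fibroblast markers summed to 603.1 and 419.6 CPM in sham and 241.2 and 332.5 CPM in TAC, again with all 15 below 0 (median -0.82).

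The 12 mural cell markers had a median of -0.69, and 11 of them were below 0. Their sum was 2270 and 2403 CPM in sham and 2432 and 2604 CPM in TAC, most of it from Des, which muscle cells also express and which had the only value above 0 (0.37). T cell and neutrophil markers were near 0, with 10 of 12 under the filter and Ly6g at 0. Sham 1 was highest for the endothelial, fibroblast and macrophage lists, as it was for Nr4a1 and Nr4a2. Within TAC the order was opposite, since TAC 1 was the lower library for those marker lists and the higher library for Nr4a1 and Nr4a2. Nr4a3 was higher in both TAC libraries, where the endothelial and fibroblast sums lay below those of both sham libraries. Their part in the NR4A values was not tested.

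The 3′UTRs were searched for elements that govern how long a message lasts. The pentamer AUUUA of AU-rich elements, common in short-lived early messages, was found 3 times in Nr4a1, 3 times in Nr4a2 and 5 times in Nr4a3. Per kilobase of 3′UTR this was 5.52 in Nr4a1, a density above that of 95.6% of 12389 genes, 2.26 in Nr4a2 (69.6%) and 1.62 in Nr4a3 (56.7%). By number alone, Nr4a1 and Nr4a2 each held more pentamers than 60.3% of genes, and Nr4a3 more than 76.0%. The stronger nonamer, UUAUUUA followed by a pair of A or U bases, was in none of the 3 and in 18.0% of genes.

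The study centred on 5 miRNAs that repress Rbfox2, namely let-7f-5p, miR-16-5p, miR-24-3p, miR-92a-3p and miR-200b-3p, and these were matched by their seeds to the NR4A 3′UTRs. A site complementary to bases 2 to 8 was found once, for miR-92a-3p in Nr4a3, the longest of these 3′UTRs, at base 643 of the 3′UTR. The mature miRNA (RefSeq) is shown with its seed in capitals, and the Nr4a3 site with the matching bases in capitals.
miR-92a-3p: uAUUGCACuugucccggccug
Nr4a3 site: ttgcttccatatacaaGTGCAATtt
Such a site was present in 7.80% of 12389 genes, so a match by letters alone is not rare. miRNA levels were not part of the files used here.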

How the data were processed

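RNA was sequenced from cardiomyocytes of 2 sham and 2 TAC hearts, with groups read from the titles of the samples. Values per gene were deposited both as an expected count (estimated, so not always whole) and as FPKM. The submitters' processing notes list Bowtie2 2.2.8, StringTie 1.3.1 and build mm10 with no roles; the sources used here name no counting program and no strand setting. Deposited expected counts were rounded, filtered with filterByExpr, scaled by TMM factors (1.097, 1.04, 0.868 and 1.009) and tested with glmQLFit and glmQLFTest of edgeR 4.0.16 in R 4.3.3, TAC against sham, with Benjamini-Hochberg adjustment over 12499 genes and calls at an adjusted p under 0.05. The fit was checked on simulated counts. Each library counted as a replicate because each came from its own heart; libraries of a group were also checked for duplicate deposits and differed beyond sampling noise (chi-square 8.08 and 26.7 per degree of freedom). An exact permutation test of 2 against 2 cannot go below p = 0.333, so each p rests on the spread pooled over genes. Alternatives were total counts with and without the 13 mitochondrial genes, DESeq2 1.42.0, no count filter, a replicate block, leaving out each library, and mean FPKM.

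The receptors and all gene lists were chosen with earlier results of these data known. Named genes were the receptors, every called gene of the upstream, nuclear receptor, muscle and CREB-responsive lists (at most 6 of each) with 10 genes fixed by name, the 3 highest and 3 lowest immediate early genes with Atf3, Fos and Egr1, and the 5 genes most like each receptor. Values of 1 called nuclear receptor are not reported here. C5ar1, Plk2, Nppb, Tnfrsf12a and Ppp1r15a were picked from the last group for description. Promoter and miRNA sequences came from RefSeq, in which the 3 receptors and 5 miRNAs all matched, and 3′UTRs from GENCODE M21.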

Additional observations from a re-analysis of the deposited data

How the results depend on the processing

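With 2 libraries per group, single libraries moved many values. The log2 fold change of Nr4a3 was 2.36 in the fit of all libraries, 2.17 with total counts, 2.20 from mean FPKM and 2.26 to 2.48 with a library left out. That of Nr4a2 ranged from -2.60 to -1.17 with a library left out, the smallest without sham 1, and that of Nr4a1 from -1.33 to 0.00. The immediate early median of -0.72 ranged from -1.01 to -0.32. The 626 calls over all genes became 159 to 1045 with a library left out (159 without TAC 1, 1045 without TAC 2), 921 with DESeq2 and 1676 with no count filter, of which 707 were higher and 969 lower. With TMM, 322 calls were higher and 304 lower; with total counts 105 and 423, and without the mitochondrial genes 188 and 450. The 2 upstream calls became 4 with total counts, with total counts without mitochondrial genes and with DESeq2, and 7 with no filter. The added calls were not all higher in TAC. With total counts Srf was lost, and Mef2c, Hdac4 and Hdac7 were called lower. Without the mitochondrial genes Mef2c and Hdac9 were added, both lower. DESeq2 added Prkar1a, higher, and Hdac7, lower. No filter added Crem and Prkar1a, higher, and Mef2c, Hdac4 and Hdac7, lower. The 3 nuclear receptor calls became 6 with no filter and 2 to 4 with a library left out. The 3 muscle calls became 6 with DESeq2, 8 with no filter, and 2 to 5 with a library left out. The 2 CREB-responsive calls became 7 with no filter and 0 to 6 with a library left out. The cause was not tested, but where a library is left out its group holds 1 sample, whose spread is assumed to be like that of the other group.

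Labels give both groups replicate numbers 1 and 2 without saying that a number marks anything shared. The methods of the study speak of pairs of sham and TAC mice, but do not say what made a pair or tie the numbers to it. The difference of sham 1 and sham 2 correlated at -0.264 with that of TAC 1 and TAC 2 over 12499 genes. That value cannot decide whether the mice were paired, since differences in cell markers between libraries also enter it. With nothing in the labels to tie them, the numbers were not taken as pairing. With the replicate block there were 566 calls, and the log2 fold changes were -0.70 for Nr4a1, -2.01 for Nr4a2 and 2.37 for Nr4a3. In that fit Pgam2 (edgeR adjusted p = 0.0629) and Ppargc1b (0.0613) were no longer called, while Pdk4 (0.0416), Ucp3 (0.0195) and Sik1 (0.00441) were, which left 3 muscle calls and made 3 CREB-responsive calls. The crossed pairing, added after that correlation was seen, gave 2131 calls. The depth limits Nr4a2 most, at 7 to 77 counts per library.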
